A study of Bos taurus with 6 samples.

Results

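The miRNAs described here are the mature bovine miRNAs named from bta-miR-2286 to bta-miR-2489, whatever letter or arm suffix follows, a range that was first given to miRNAs found in cattle. The count files hold 242 such names among 755 mature bovine miRNA names. They were taken by name alone, although earlier results of these data were known when the range was chosen. A miRNA is cut from a hairpin precursor, whose 2 strands give a 5p and a 3p arm. The arm that is loaded into the silencing complex guides it to mRNAs that match bases near its 5′ end, and the other arm is mostly degraded. Names that were given in 1 species from sequencing data include young miRNA genes with low levels and narrow expression, and also hairpins whose status as a miRNA gene is uncertain.

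Granulosa cells line the follicle, support the oocyte and make estradiol. They were taken from preovulatory dominant follicles (3 libraries) and anovulatory subordinate follicles (3 libraries) at day 19 of the estrous cycle. All donors were young Simmental heifers synchronized with analogues of prostaglandin and gonadotropin-releasing hormone, and follicles were sorted into the groups by surface diameter. Both kinds of follicle came from the same heifers, and RNA was pooled into 3 replicates a group, so that a dominant replicate may stand for few follicles and a subordinate replicate for many. The values between replicates therefore show the spread between pools. The p-values set the difference between the groups against the spread between pools. They treat the pools as independent, although both kinds of follicle came from the same heifers.

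Counting each mature name 1 time, library totals ran from 190385 to 364125 reads. Levels are given as reads and as CPM, the reads scaled to a common library size with TMM factors, a correction for the make-up of each library. At this depth 3 reads were worth between 9.55 and 13.9 CPM in dominant and between 8.86 and 10.6 CPM in subordinate libraries, and lower values could not be told from 0. The granulosa-associated bta-miR-202, bta-miR-21-5p and bta-miR-22-3p together stood between 106466 and 112052 CPM in dominant and between 26475 and 41104 CPM in subordinate libraries. All 3 passed the thresholds for a call given below, higher in dominant follicles, and they were chosen with earlier results of these data known. Their gap between the groups therefore does not show how many granulosa cells a library held. The 6 tested of 7 blood-cell miRNAs summed to 14203 and 8901 CPM in dominant replicates 1 and 2. Their sum was 1306 CPM in dominant replicate 3 and between 1366 and 2026 CPM in subordinate libraries. Among them, bta-miR-486 had the highest mean level, 3596 CPM, followed by bta-miR-451 with 770 CPM. Both passed the thresholds for a call given below, higher in dominant follicles. Bta-miR-142-5p, bta-miR-150, bta-miR-223 and bta-miR-144 did not, with log2 fold changes of dominant over subordinate follicles of 0.53, 0.08, -0.48 and 1.33. No miRNA of these lists was at 0 in all libraries, and the endothelial pair (bta-miR-126-5p and -3p) lay between 73.2 and 293 CPM in dominant and between 354 and 540 CPM in subordinate libraries. The 5 miRNAs of stroma and theca summed to between 17603 and 27823 CPM in dominant and between 21064 and 35751 CPM in subordinate libraries. Of these, only bta-miR-214 passed the thresholds for a call given below, lower in dominant follicles with a log2 fold change of -1.20. In bulk RNA, fewer cells of a type and less RNA per cell cannot be told apart.

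Most cattle-named miRNAs gave no read. Of the 242 names, 156 had none in any of the 6 libraries, 40 had reads without meeting the detection rule of at least 1 read in at least 2 of 3 replicates of a group, and 46 (19.0%) met it in at least 1 group. None of the undetected names averaged more than 0.667 reads over the 6 libraries. The rule was met by 33 names in dominant and 37 in subordinate follicles, with 24 in both, 9 in dominant follicles only and 13 in subordinate follicles only. For comparison, 30 of the 54 names of the miR-2284 and miR-2285 families, which are expanded in ruminants, were detected (55.6%), as were 277 of the 459 other names (60.3%).

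The detected members were also scarce. Their mean level over the 6 libraries ran from 1.03 to 312 CPM with a median of 6.72 CPM, against medians of 19.1 CPM for the 30 names of the miR-2284 and miR-2285 families, 125 CPM for the 277 other names and 52.6 CPM for all 353 tested miRNAs. No member was among the 100 highest of the 353, and 41 of the 46 stood in the lower 177 ranks. A mean of at least 10 reads in a group was reached by 13 of the 242 names, a mean of at least 100 reads by 2, and reads in all 6 libraries by 15. All members together took 0.174% (95% Wilson interval 0.159 to 0.191), 0.170% (0.153 to 0.190) and 0.128% (0.116 to 0.141) of the reads in dominant replicates 1, 2 and 3. In subordinate replicates 1, 2 and 3 they took 0.130% (0.118 to 0.143), 0.0882% (0.0790 to 0.0983) and 0.131% (0.119 to 0.145). The group means were 0.157 ± 0.0255% (SD, n = 3) and 0.117 ± 0.0246% (SD, n = 3), and the groups overlapped. Bta-miR-2313-3p alone held 209 of the 452, 131 of the 324 and 15 of the 399 member reads in dominant replicates 1, 2 and 3. In subordinate replicates 1, 2 and 3 it held 2 of 430, 9 of 321 and 3 of 403. The higher dominant mean thus rests largely on this 1 name. The intervals and the worth of 3 reads cover counting error only, since reads amplified by PCR are not independent molecules.

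**Figure D1:**
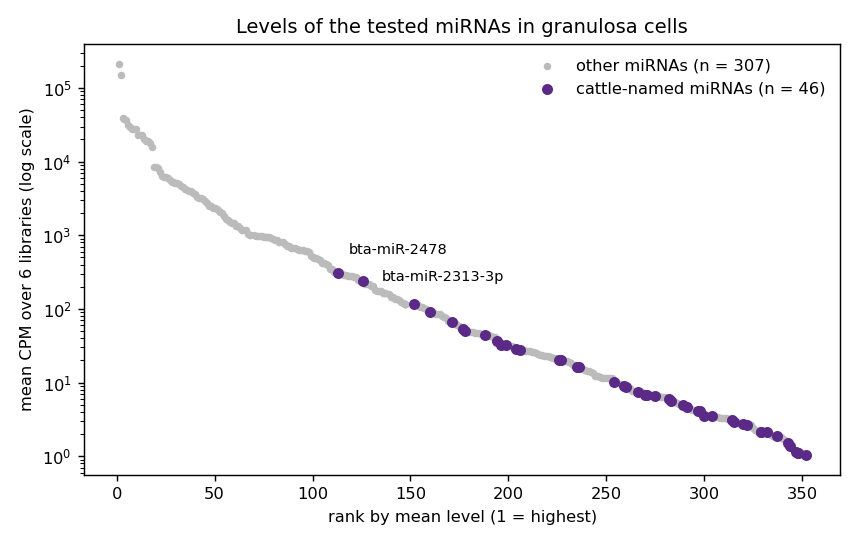
Mean level of each of the 353 tested miRNAs over the 6 libraries (vertical axis, CPM on a log scale) against its rank (horizontal axis, 1 is the highest), with the 46 cattle-named miRNAs in purple and the 307 others in grey. The first cattle-named miRNA, bta-miR-2478, stands at rank 113 with 312 CPM, and bta-miR-2313-3p follows at rank 126.

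Among the members bta-miR-2478 had the highest mean level, 312 CPM. Its libraries held 86, 93 and 35 reads in dominant replicates 1 to 3 and 195, 89 and 46 reads in subordinate replicates 1 to 3. It was lowest in the library numbered 3 of each group, and the groups overlapped widely, with 282 ± 161 CPM (SD, n = 3) in dominant and 342 ± 212 CPM (SD, n = 3) in subordinate follicles. It made up between 8.77 and 45.3% of all member reads in a library.

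After it came, in descending order of mean CPM, bta-miR-2313-3p, bta-miR-2411-3p, bta-miR-2483-5p, bta-miR-2484, bta-miR-2424, bta-miR-2419-5p, bta-miR-2332, bta-miR-2487 and bta-miR-2387, from 240 to 32.6 CPM. The order is loose, because most of these varied more between replicates of a group than they differed from their neighbours in it. Bta-miR-2484 was among the steadier ones, with 11, 7 and 24 reads in dominant and 17, 26 and 32 reads in subordinate replicates, though highest in replicate 3 of each group. Its log2 fold change was -0.71 (adjusted p = 0.307, edgeR's quasi-likelihood test). Bta-miR-2387 had 13, 7 and 6 reads in dominant and 13, 13 and 5 in subordinate replicates, which gave nearly the same CPM in both groups (32.5 ± 13.4 and 32.7 ± 13.2, SD, n = 3 each). For bta-miR-2419-5p the counts were 7, 8 and 31 in dominant and 22, 7 and 14 in subordinate replicates, so that the highest value came from dominant replicate 3 alone.

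The comparison of the follicle types was made with edgeR's quasi-likelihood test over all 353 detected miRNAs, and a call needed a difference of at least 1 on the log2 scale in either direction, an unadjusted p no higher than 0.05 and an adjusted p no higher than 0.1. Of the 46 members tested, 6 were called, against 21.5% of all tested miRNAs. Of these, 4 rose in dominant follicles (bta-miR-2313-3p, bta-miR-2313-5p, bta-miR-2366 and bta-miR-2483-5p), where the background was 11.9%. The other 2, bta-miR-2344 and bta-miR-2440, fell, where the background was 9.63%. The members' share of 13% was thus below the background. Within the lower 177 ranks of all tested miRNAs 4 of 41 members were called (9.76%), against 11.9% of all miRNAs there. In the upper ranks 2 of 5 were called (40%), against 31.2%. At like ranks the members were therefore not below the background throughout. The CPM of the groups did not overlap for 7 members, against 36.8% of all tested miRNAs. An unadjusted p of at most 0.05 was found for 6 members (13%), all of them called, against 33.4% of all tested miRNAs, called or not. Of the 7 members without overlap, 4 were higher and 3 lower in dominant follicles, against 18.4% of all tested miRNAs in each direction.

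The members' share of calls was below that of all tested miRNAs in each of the 14 alternative fits with edgeR. These fits re-use the same libraries and are not independent. The gap was small with edgeR's own filter (30 against 31.7%) and with a filter of 10 reads in 3 libraries (27.3 against 31.7%). It was also small without dominant replicate 3 (19.6 against 21.2%). DESeq2 called 5 members but gave 26 of the 46 no adjusted p, so that its share cannot be set beside the others. The share of all tested miRNAs was 19.3% with DESeq2, 21.2% with median-of-ratios size factors, 19.8% with total count scaling, 16.2% without a filter, 20.7% with summed precursor rows and 20.1% with a replicate block, where 5, 6, 6, 6, 6 and 7 members were called. It was 31.7% with edgeR's own filter and 31.7% with a filter of 10 reads in 3 libraries, where 3 of 10 and 3 of 11 members were called. Without 1 of the dominant replicates 1, 2 and 3 it was 15.3, 16.4 and 21.2%, with 2, 3 and 9 members called. Without 1 of the subordinate replicates 1, 2 and 3 it was 17.8, 17.6 and 17.8%, with 2, 3 and 6 members called, and without both libraries numbered 3 it was 20.4%, with 7 members called.

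Bta-miR-2313-3p showed the largest difference among the called members. It had 209, 131 and 15 reads in dominant replicates 1 to 3 and 2, 9 and 3 reads in subordinate replicates 1 to 3, or 464 ± 367 CPM (SD, n = 3) and 15.2 ± 12.3 CPM (SD, n = 3). The groups did not overlap, but dominant replicate 3 lay far below the other 2. The log2 fold change was 4.90 (standard error 1.01, adjusted p = 0.00906, edgeR's quasi-likelihood test), and the call held without any 1 of the 6 libraries. The blood-cell miRNAs, of which bta-miR-486 had the highest mean level, were as a sum likewise high in dominant replicates 1 and 2. In dominant replicate 3, where they summed to less than in any subordinate library, bta-miR-2313-3p stood at 47.8 CPM against 5.91, 29.1 and 10.6 CPM in the subordinate libraries.

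The opposite arm, bta-miR-2313-5p, followed the same pattern at a much lower level, with 10, 4 and 1 reads in dominant and 0, 0 and 1 reads in subordinate replicates. Its log2 fold change was 3.67 (standard error 1.20, adjusted p = 0.0608, edgeR's quasi-likelihood test). Dominant replicate 3 and subordinate replicate 3 overlapped, at 3.18 and 3.53 CPM. Over the 3 libraries of a group the ratio was 17.2 with an exact counting interval of 2.64 to 723, since the subordinate follicles gave 1 read in all. The adjusted p rose to 0.224 without dominant replicate 1, 0.143 without dominant replicate 2, 0.154 without subordinate replicate 1 and 0.141 without subordinate replicate 2, and was then above the threshold. Whether the blood-cell miRNAs had a part in the difference of either arm was not tested.

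Bta-miR-2483-5p differed less but more evenly. Its reads numbered 44, 25 and 35 in dominant and 23, 15 and 13 in subordinate replicates, which is 128 ± 24.1 CPM (SD, n = 3) and 54.1 ± 12.0 CPM (SD, n = 3). Every dominant library stood above every subordinate library in CPM, and dominant replicate 3 (111 CPM) was close to dominant replicate 2 (116 CPM). The log2 fold change was 1.23 (standard error 0.33, adjusted p = 0.0320, edgeR's quasi-likelihood test). Without dominant replicate 1 the adjusted p was 0.120 and without subordinate replicate 2 it was 0.104, with log2 fold changes of 1.06 and 1.15.

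Bta-miR-2366 was at the limit of detection. The dominant replicates gave 3, 3 and 4 reads and the subordinate replicates 0, 0 and 1, so that the groups did not overlap although all counts were small. Its log2 fold change was 3.08 (standard error 0.95, adjusted p = 0.0469, edgeR's quasi-likelihood test), and the ratio of the summed counts was 11.5 with an exact counting interval of 1.63 to 497. The call was lost without dominant replicate 1 (adjusted p = 0.101), dominant replicate 2 (0.119), subordinate replicate 1 (0.154) or subordinate replicate 2 (0.125).

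Of the members that fell, bta-miR-2344 had 0, 2 and 0 reads in dominant and 15, 8 and 5 reads in subordinate replicates. All subordinate libraries lay above all dominant libraries, at 29.3 ± 13.6 CPM (SD, n = 3). The log2 fold change was -3.33 (standard error 0.98, adjusted p = 0.0417, edgeR's quasi-likelihood test). As a ratio of summed counts the subordinate level was 12.2 times the dominant level, with an exact counting interval of 3.08 to 106. Without dominant replicate 1 the adjusted p was 0.131, and without subordinate replicate 1 it was 0.116.

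Bta-miR-2440 had 5, 1 and 5 reads in dominant and 16, 12 and 12 reads in subordinate replicates. The subordinate libraries agreed closely, at 42.8 ± 4.24 CPM (SD, n = 3), and all lay above the dominant libraries at 12.7 ± 7.06 CPM (SD, n = 3). The log2 fold change was -1.67 (standard error 0.52, adjusted p = 0.0482, edgeR's quasi-likelihood test). It was no longer called without dominant replicate 2 (adjusted p = 0.107) or without subordinate replicate 1 (adjusted p = 0.124), nor without both libraries numbered 3 (adjusted p = 0.106).

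**Figure D2:**
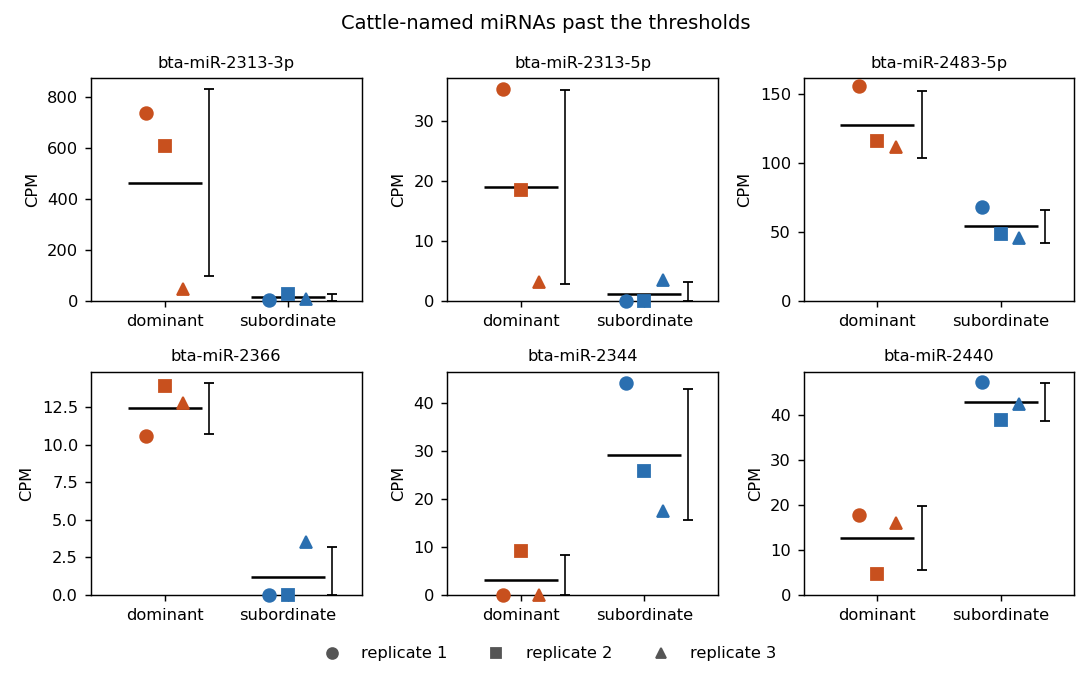
CPM of the 6 called cattle-named miRNAs in each library (vertical axis from 0, a panel per miRNA), with dominant follicles in orange, subordinate follicles in blue and a symbol per replicate. The black line is the mean and the bar beside it the SD over 3 libraries, drawn down to 0 at the lowest. Bta-miR-2313-3p and bta-miR-2313-5p are high in dominant replicates 1 and 2 and low in dominant replicate 3, whereas bta-miR-2483-5p lies between 111 and 155 CPM in all 3 dominant libraries.

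**Figure D3:**
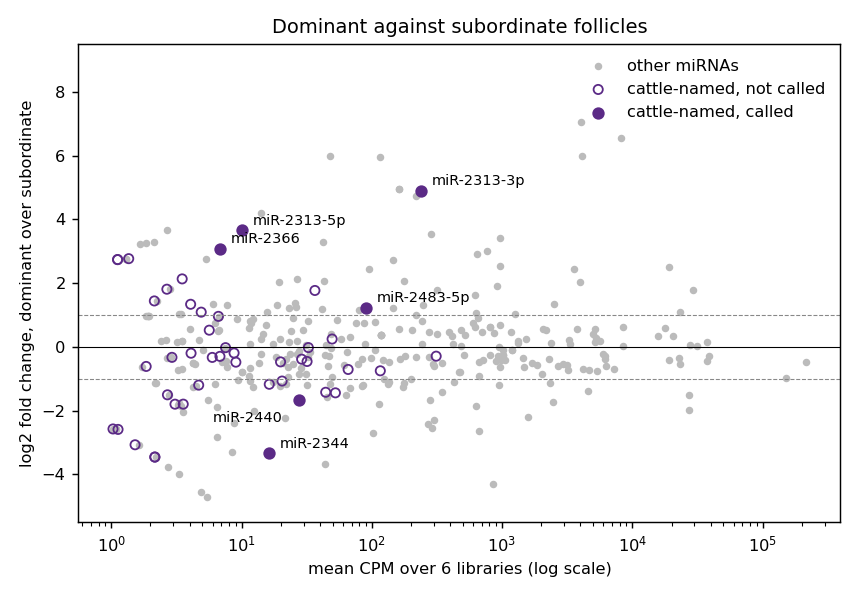
Log2 fold change of dominant over subordinate follicles (vertical axis) against mean CPM over 6 libraries (horizontal axis, log scale) for the 353 tested miRNAs. Filled purple points are the 6 called cattle-named miRNAs, open purple points the 40 not called and grey points the other miRNAs, and the dashed lines mark log2 fold changes of 1 and -1. Most open points lie at the left, where few reads were counted.

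The other 40 members did not pass the test, and their lowest adjusted p was 0.188 (edgeR's quasi-likelihood test). Of the 46 tested members, 28 had a mean below 5 reads in both groups. The median log2 fold change was -0.33 for the members and -0.20 for all tested miRNAs, with 16 members above and 30 below 0. Scaling by total count in place of TMM moved the median of all tested miRNAs by 0.19, to -0.01, and that of the members to -0.15. It left all 6 calls in place.

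A further 3 names met the detection rule in only 1 group with a mean of at least 2 reads there. Bta-miR-2404 had 0, 0 and 24 reads in dominant and 2, 2 and 29 reads in subordinate replicates. It thus missed the rule in dominant follicles because only replicate 3 had reads there. Bta-miR-2415-3p had 0, 2 and 0 reads in dominant and 3, 2 and 1 reads in subordinate replicates. Bta-miR-2446 had 0, 1 and 5 reads in dominant and 3, 0 and 0 reads in subordinate replicates. None of the 3 passed the test (adjusted p = 0.831, 0.467 and 0.571, edgeR's quasi-likelihood test). The 26 remaining tested members had at most 14 reads in any library.

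Several of the more abundant members were highest in the library numbered 3 of each group. Bta-miR-2411-3p had 3, 0 and 76 reads in dominant and 20, 32 and 80 reads in subordinate replicates. Bta-miR-2487 had 2, 1 and 49 reads and 1, 2 and 12 reads, and bta-miR-2332 had 3, 0 and 18 reads and 11, 14 and 34 reads. In each of them, and in bta-miR-2404, the libraries numbered 3 held the highest 2 values of the 6 in CPM. The same order was found at very low counts for bta-miR-2320-5p. Bta-miR-2424 was also highest in replicate 3 within each group, with 2, 3 and 19 reads in dominant and 7, 19 and 43 reads in subordinate replicates. So was bta-miR-2484, less steeply, with 11, 7 and 24 reads and 17, 26 and 32 reads. The pattern was picked out after the values were seen.

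Both libraries numbered 3 stood above the other 4 for 5 of the 46 members, against 4.25% of all tested miRNAs (15 of 353). For the libraries numbered 1 and 2 this held for 0 and 1 members, against 0.567% and 2.55%. The 10 other miRNAs of this kind were bta-miR-1246, bta-miR-1291, bta-miR-2885, bta-miR-2887, bta-miR-2904, bta-miR-362-5p, bta-miR-381, bta-miR-411a, bta-miR-665 and bta-miR-677. Among them, the sequence of bta-miR-1246 also occurs in the small nuclear RNA U2. The low bta-miR-1291, with 4 to 10 reads a library, lies within a small nucleolar RNA. Both were picked out of the 10 from general knowledge, and nothing is said here of the others. In the RefSeq gene table used below, 0 of the 207 matched member precursors and 0 of the 545 other precursors overlapped a small RNA gene. Whether it lists such RNAs fully was not tested. Bta-miR-1246 had 164, 195 and 2555 reads in dominant and 471, 352 and 3727 reads in subordinate replicates. Whether fragments of other small RNAs had a part in the levels of the 5 members was not tested.

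The difference between the follicle types within these members depended on the libraries numbered 3. With all libraries, bta-miR-2411-3p had a log2 fold change of -0.75 (adjusted p = 0.663, edgeR's quasi-likelihood test). Without dominant replicate 3 it was called lower in dominant follicles, at -4.54 (adjusted p = 0.0247), and with both libraries numbered 3 left out, at -3.64 (adjusted p = 0.0265). Without subordinate replicate 3 its sign turned, to 0.11. Bta-miR-2332 went from -1.43 (adjusted p = 0.307) to -3.37 (0.0586) without dominant replicate 3 and to -2.59 (0.0851) without both. Bta-miR-2424 went from -1.44 (adjusted p = 0.267) to -2.90 (0.0776) without dominant replicate 3, but was not called without both, at -1.95 (0.138). Bta-miR-2484 was called in neither case, going from -0.71 (adjusted p = 0.307) to -1.19 (0.125) without dominant replicate 3 and -0.87 (0.220) without both. The fold change of bta-miR-2487 was 1.77 with all libraries (adjusted p = 0.350), -1.42 without dominant replicate 3 and 0.36 without both.

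**Figure D4:**
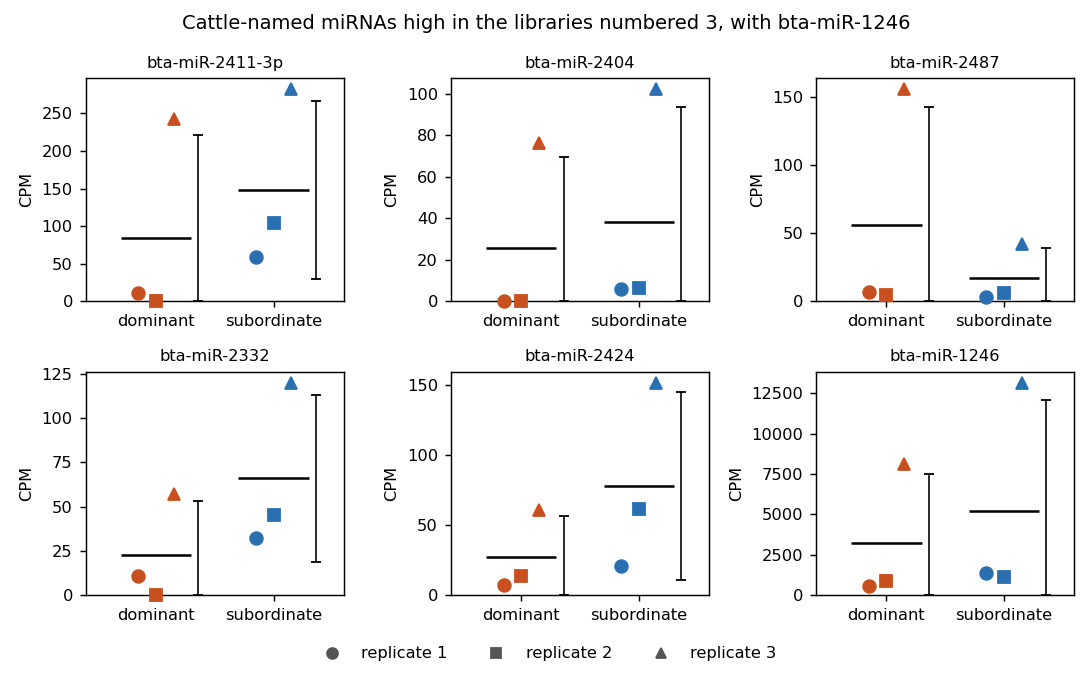
CPM in each library (vertical axis from 0, a panel per miRNA) of 5 cattle-named miRNAs and of bta-miR-1246, with dominant follicles in orange, subordinate follicles in blue and a symbol per replicate. The black line is the mean and the bar beside it the SD over 3 libraries, drawn down to 0 at the lowest. In every panel the triangle, replicate 3, is the highest value of its group; for bta-miR-2424 subordinate replicate 2 lies slightly above dominant replicate 3.

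Arm use could be followed for few precursors. Of the 242 names, 35 end in 5p, 35 in 3p and 172 carry no arm, and 34 precursors have names for both arms. Of these 34 pairs, 12 gave no reads, 10 gave reads of 1 arm and 12 gave reads of both. In 3 pairs, both arms met the detection rule in the same group, and for these the log2 ratio of 5p to 3p reads was taken library by library, with 1 read added to each arm.

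Bta-miR-2483 gave more reads of its 5p arm. The 5p arm had 155 reads over the 6 libraries and the 3p arm 52, the latter with 5, 4 and 12 reads in dominant and 12, 11 and 8 reads in subordinate replicates. The log2 ratio averaged 1.45 over 6 libraries, from 0.42 to 2.91, and lay above 0 in every library (two-sided exact sign-flip permutation test, adjusted p = 0.0469 over the 3 pairs, unadjusted p = 0.03125, the lowest value possible with 6 libraries). It was 2.25 ± 0.73 in dominant and 0.65 ± 0.23 in subordinate follicles (SD, n = 3 each), without overlap (two-sided exact permutation test, adjusted p = 0.3, unadjusted p = 0.1, the lowest value possible with 3 libraries against 3). The 5p arm was the one called higher in dominant follicles, while the 3p arm had -0.39 on the log2 scale (adjusted p = 0.571, edgeR's quasi-likelihood test, standard error 0.47).

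Bta-miR-2313 had the reverse use, with 369 reads of the 3p arm over the 6 libraries and 16 of the 5p arm. Its log2 ratio was -2.98 ± 1.46 (SD, n = 6 libraries) and negative in every library (two-sided exact sign-flip permutation test, p = 0.03125, adjusted p = 0.0469). The ratio was -3.99 ± 0.89 in dominant and -1.97 ± 1.21 in subordinate follicles (SD, n = 3 each), and the groups overlapped (two-sided exact permutation test, p = 0.2, adjusted p = 0.3). With so few 5p reads, the added read pulls the subordinate ratios towards 0.

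Bta-miR-2320 showed no steady order of the arms. The 5p arm had 1, 1 and 3 reads in dominant and 2, 1 and 4 reads in subordinate replicates, and the 3p arm had 2, 3 and 0 and 1, 2 and 1 reads. The log2 ratio was 0.29 ± 1.21 (SD, n = 6 libraries), above 0 in 3 libraries and below 0 in 3 (two-sided exact sign-flip permutation test, p = 0.625). The arm tests treat the 6 pools as independent, although they came from shared heifers.

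Some other pairs gave nearly all reads from 1 arm, and they are given here as totals over 6 libraries, picked after the values were seen. The 3p arm of bta-miR-2411 had 211 reads and its 5p arm 2. The 5p arm of bta-miR-2419 had 89 reads and its 3p arm 1. Bta-miR-2299 and bta-miR-2425 gave 36 and 16 reads of the 5p arm and none of the 3p arm, whereas bta-miR-2415 gave 8 reads of the 3p arm and none of the 5p arm.

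**Figure D5:**
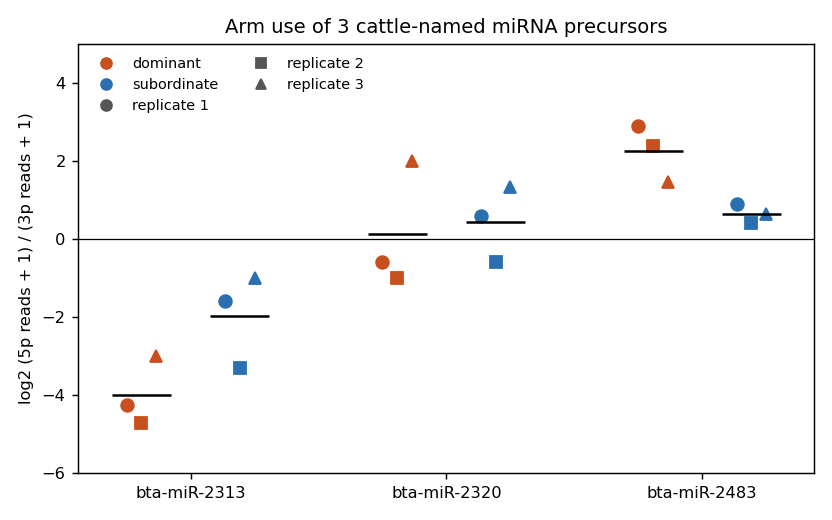
Log2 ratio of 5p to 3p reads, with 1 read added to each arm (vertical axis), library by library for the 3 precursors with both arms detected, with dominant follicles in orange, subordinate follicles in blue, a symbol per replicate and the group mean as a black line. All 6 libraries lie below 0 for bta-miR-2313 and above 0 for bta-miR-2483, and the groups are separate for bta-miR-2483.

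Most precursors of the members lay within larger genes. The RefSeq gene table of the later assembly ARS-UCD2.0 was used for gene names only, and 207 of the 211 precursors of the members were found in it by name. Of these, 162 (78.3%) lay within the span of a protein-coding gene, against 323 of 545 other precursors of the files (59.3%), a difference given without a test. Strand was not compared. Another miRNA gene within 10 kb was found for 18 of the 207 and for 228 of the 545, so the members mostly stood alone.

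Among the called members, MIR2313 lay within GRAMD1B, which codes for a protein that moves cholesterol between membranes. MIR2483 lay within TENM1, a gene of the teneurin family of cell-surface proteins. MIR2366 lay within MAP1A (a microtubule-associated protein), MIR2344 within TBCD (a tubulin-folding cofactor) and MIR2440 within RPL3 (a protein of the large ribosomal subunit). Of the members high in the libraries numbered 3, MIR2411 lay within UBAP2L and MIR2332 within UTP6, a gene of ribosome assembly, and of the 2 precursors of bta-miR-2404, 1 lay within FHIP1A and the other in no listed gene. MIR2478, of the highest member, overlapped no listed gene. The mRNA levels of these genes were not measured in these libraries.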

How the data were processed

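Small RNA of pooled granulosa cells was sequenced in 3 libraries from dominant and 3 from subordinate follicles. Counts were deposited without normalization. To make them, the authors used Cutadapt and Seqtk to cut off adapters and to drop reads of low quality or under 18 bases, mapped the rest to the bovine genome (UMD3.1 per the labels) with Bowtie and counted them on miRBase miRNAs with miRDeep2. There are 906 rows of a mature miRNA and a precursor for 755 mature names. For each name the largest row was used; among the members 5 names had several rows, which differed only for bta-miR-2404.

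Groups were taken from the sample labels. The follicle types were compared by edgeR's quasi-likelihood test (edgeR 4.0.16 in R 4.3.3) with TMM factors and no covariate. P-values were adjusted by Benjamini-Hochberg over all 353 miRNAs with a read in 2 or more of the 3 replicates of either group. Standard errors are absolute log2 fold changes over the root of the F statistic. Arm ratios were tested by exact permutation. The script was tested on simulated counts with known changes of a single size and a fixed spread. No call above rests on that test. Tables, permutation tests and plots were made in Python 3.11.15 (scipy 1.17.1, numpy 2.4.6, pandas 2.3.3, matplotlib 3.10.9). Alternatives were DESeq2 1.42.0, other size factors, filters, detection rules and pseudocounts, summed precursor rows, a replicate block and each library left out.

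Named are the called members, the 10 highest by mean CPM, both arms of pairs with a ratio, members detected in 1 group only with a mean of at least 2 reads, and those the study names. The members were taken by name alone, but they and the lists of cell-type miRNAs were chosen with earlier results of these data known. Sequences of the miRNAs are not analysed here.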

Additional observations from a re-analysis of the deposited data

How the results depend on the processing

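The same 6 members were called with median-of-ratios size factors, total count scaling, no filter, summed precursor rows or no minimum fold change, and a threshold of 0.05 on the adjusted p dropped bta-miR-2313-5p. DESeq2 kept 5 of them and gave 26 of the 46 members, bta-miR-2366 among them, no adjusted p. EdgeR's own filter and a filter of 10 reads in 3 libraries each left 2 members called higher and 1 lower, since they tested 10 and 11 members. Without 1 library, 1 to 4 members were called higher and 0 to 5 lower, with 5 lower without dominant replicate 3 and 0 without subordinate replicate 1.

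Deviations of the libraries with the same replicate number correlated at 0.0072, 0.11 and 0.27 across 353 miRNAs, and not every library correlated best with its own number. Whether libraries with the same number share heifers is not known, so the numbers were not used as pairs. With the replicate block 3 members were called higher and 4 lower, bta-miR-2332 and bta-miR-2424 being added at -1.72 and -1.57 and bta-miR-2366 lost. Without both libraries numbered 3, an alternative chosen after seeing the data, 4 were higher and 3 lower, with bta-miR-2332 and bta-miR-2411-3p added and bta-miR-2440 lost.

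At least 5 reads in 2 replicates left 9 members detected in dominant and 14 in subordinate follicles, and at least 1 read in any replicate gave 57 and 73. With all libraries thinned to the smallest one, a mean of 30.4 and 30.5 members over 100 draws were detected, so the higher number in subordinate follicles was not kept at equal depth. The members' share of reads became 0.117 and 0.0837% with all precursor rows in the denominator and 0.119 and 0.0861% with summed rows. Without 1 library the arm ratio of bta-miR-2313 lay between -3.38 and -2.63 and that of bta-miR-2483 between 1.16 and 1.66, where no exact p can be below 0.0625. Without both libraries numbered 3 they were -3.47 and 1.65 (exact permutation p = 0.125, the lowest possible). For bta-miR-2320 the ratio lay between -0.053 and 0.55 without 1 library and was -0.40 without both libraries numbered 3.

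Log2 fold changes of members that were not called turned sign without 1 library, and their ranges were -0.28 to 1.15 for bta-miR-2320-3p, -0.86 to 0.37 for bta-miR-2320-5p, -0.38 to 0.27 for bta-miR-2387, -6.45 to 2.06 for bta-miR-2404, -4.54 to 0.11 for bta-miR-2411-3p, -0.60 to 0.59 for bta-miR-2419-5p, -0.56 to 4.11 for bta-miR-2446, -0.67 to 0.31 for bta-miR-2478 and -1.42 to 3.52 for bta-miR-2487. Bta-miR-2387 was also 0.19 with total counts, 0.0041 with the replicate block and 0.0064 without both libraries numbered 3, where bta-miR-2419-5p and bta-miR-2446 were -0.54 and -1.03. The cause of these turns was not tested.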
